A study of Mus musculus with 4 samples.

Results

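The genes described here are 36 smooth muscle contractile and regulatory genes, taken as a fixed list of symbols: regulators of the muscle programme, actins and tropomyosins, actin-binding proteins, myosin chains and their kinase and phosphatase subunits, calcium proteins, desmin-type filaments, and proteins of adhesion plaques. They were represented by 62 of the 39429 probes on the arrays, and 35 of the 36 genes had a probe bright enough to test, among 19365 genes tested in all. The list was chosen by name, without a threshold on any measured value, but with earlier results of these data known. No test was therefore made over the list, and its shares beside those of all genes are descriptions. All samples were ureters of NMRI mouse embryos at the stage E14.5, cut out mechanically. The conditional double knockouts, cDKO for short, carried Fgfr1(fl/fl) and Fgfr2(fl/fl) together with a cre allele, Tbx18(cre/+). The controls carried Fgfr1(fl/?) and Fgfr2(fl/?), that is, at least 1 floxed allele of each gene, a second allele that is not specified, and no cre allele named. Fgfr1 and Fgfr2 encode receptors for fibroblast growth factors, and the Tbx18 cre allele recombines floxed alleles in the mesenchyme that surrounds the ureteric epithelium and its descendants, the muscle layer included. The allele sits in Tbx18 itself, so the mutants also differ from the controls by 1 altered copy of that gene. The dissected ureters hold epithelium, endothelium and blood as well, in which this cre is not expected to act.

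Each of 4 arrays held RNA of cDKO ureters in one colour channel and RNA of control ureters in the other, so that each array gives 1 ratio of cDKO over control. The cDKO RNA carried the red dye (Cy5) on replicates 1 and 3 and the green dye (Cy3) on replicates 2 and 4. Replicates 1 and 4 had the sex label female in both channels, and replicates 2 and 3 the label male. Replicates 1 and 2 lay on slide 1, and replicates 3 and 4 on slide 2, which was scanned separately on another scanner. No animal, litter or pool is named behind a replicate, so p-values measure only the spread between these 4 pairs of extracts, which may be partly technical. Median spot signals ran from 138.7 to 383.4 in the cDKO channels and from 169 to 417.3 in the control channels, and no spot was saturated. Over all genes, 165 were called as different at an adjusted p under 0.05.

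Smooth muscle cells contract by sliding myosin filaments along actin filaments. Calcium entry activates calmodulin and myosin light chain kinase, which phosphorylates the regulatory light chain of myosin, and a myosin phosphatase reverses this step. Most of the genes for these proteins are switched on together by the serum response factor SRF and its partner myocardin, which bind a short DNA element called the CArG box. In the mouse ureter this programme starts in the inner mesenchyme around the stage sampled here, ahead of the first peristaltic contractions.

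None of the 35 tested smooth muscle genes was called as different between cDKO and control, against 0.852% of all genes tested (limma, Benjamini-Hochberg adjustment over 19365 genes). Most fitted ratios lay a little above 0: 27 of 35 were above (77.1%, against 52.7% of all genes) and 8 below. Their median log2 ratio was 0.06, where the median of all genes was 0.009. On replicates 1 to 4 singly, 20, 25, 20 and 21 of the 35 were above 0, against 10147, 9716, 9369 and 10061 of all 19365 genes. The gene nearest to a call was Synpo2, which encodes synaptopodin 2, an actin-bundling protein of Z-discs and dense bodies, at a log2 ratio of 0.72 ± 0.12 (SE, n = 4 arrays; adjusted p = 0.0558). It was also the one gene of the list with a fitted change of at least 1.5-fold, and 15 of the 35 lay within 0.1 of 0 on the log2 scale. The 9 defining genes of the lineage were spread: Tagln was at 0.49, Actg2 at 0.36, Myocd at 0.24, Srf at 0.20, Acta2, Cnn1, Des and Smtn between 0.00 and 0.05, and Myh11 at -0.22.

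Without adjustment, 13 of the 35 genes had p under 0.05, 10 of them with a ratio above 0 and 3 below. The shares of all genes past that threshold were 19.6% in either direction, 11.7% above 0 and 7.88% below 0, so the list's 28.6% above 0 was above its background and its 8.57% below 0 close to it. All 4 arrays gave the same sign for 12 genes, 9 above 0 (Synpo2, Synm, Csrp1, Smtnl2, Myl9, Actg2, Vcl, Pdlim7 and Tpm1) and 3 below (Mef2c, Ppp1r14a and Myh11). That is 34.3% of the list, against 25.2% of all genes. The Myh11 probe, which is in both counts below 0, passed the brightness filter only through the control channels. In 3 genes, or 8.57%, the 4 cDKO levels did not overlap the 4 control levels, against a background of 8.05%. These were Synpo2 and Synm, with every cDKO channel above every control channel, and Ppp1r14a, with every cDKO channel below. In whole ureters, fewer cells of a type and less RNA per cell cannot be told apart.

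**Figure D1:**
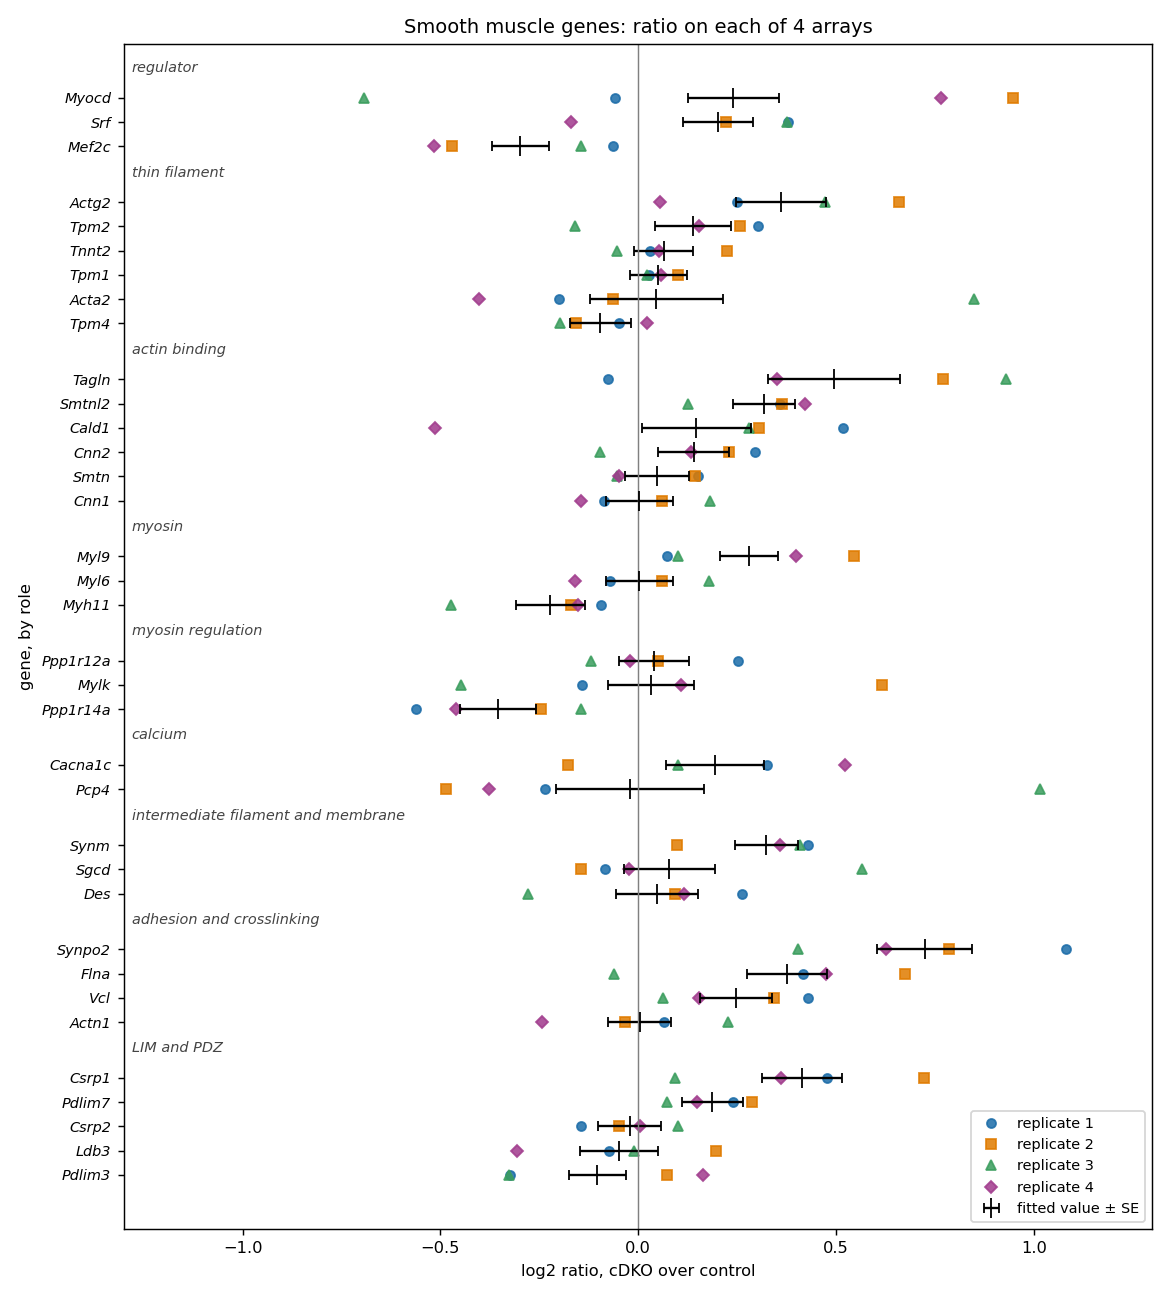
Log2 ratio of cDKO over control for the 35 tested smooth muscle genes, grouped by role; the coloured symbols are the 4 arrays and the black bars the fitted value ± SE. Synpo2 has all 4 symbols right of 0, at 0.40 to 1.08, while Acta2 and Pcp4 have 3 symbols left of 0 and replicate 3 far to the right, at 0.85 and 1.02.

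Among the regulators, Srf and Myocd had fitted ratios above 0 and Mef2c below, none of them called. Srf encodes the DNA-binding factor itself. Its level, on the log2 scale after scaling between arrays, was 12.08, 12.17, 12.40 and 12.71 in the controls of replicates 1 to 4 and 12.46, 12.39, 12.77 and 12.54 in cDKO. The cDKO channel was the brighter one on 3 of 4 arrays, and the groups overlapped. The fitted log2 ratio was 0.20 ± 0.09 (adjusted p = 0.278).

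Myocd encodes myocardin, the co-activator that gives SRF its smooth muscle targets. Its control levels were 9.43, 9.17, 10.85 and 9.59, and its cDKO levels 9.37, 10.12, 10.16 and 10.36. The ratio changed sign with the dye: it was -0.06 and -0.69 on replicates 1 and 3, where cDKO was red, and 0.95 and 0.77 on replicates 2 and 4, where cDKO was green. The fitted genotype ratio was 0.24 ± 0.12 (adjusted p = 0.308), smaller than the fitted dye term, which was -0.62 ± 0.12 for red over green (adjusted p = 0.218). A dye term with an unadjusted p under 0.05 was found for 5 of the 35 genes (14.3%; Myocd, Mef2c, Myl9, Mylk and Pdlim3) and for 8.8% of all genes. No gene's dye term passed the adjusted threshold.

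Mef2c encodes a MADS-box factor of muscle and vascular cells. Its ratios were -0.06, -0.47, -0.14 and -0.52 on replicates 1 to 4, so that all 4 arrays had the lower level in cDKO. The fitted log2 ratio was -0.30 ± 0.07 (adjusted p = 0.11), and the 2 groups' levels overlapped, at 7.63 to 8.08 in cDKO and 7.92 to 8.51 in control.

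The CArG box was searched for around the annotated starts of these genes, from 250 bases before to 50 after (RefSeq, GRCm38.p6), because it is the sequence through which SRF and myocardin act. It was found in 6 of the 31 listed genes with a promoter window (19.4%), against 488 of 27025 genes (1.81%). The sequence pattern reads the same on both strands, so 1 search covers both. The stretches that hold it, all upstream of the start, are shown on the gene's strand with the box in capitals; the last base shown is the one just before the start. Srf itself has 2 boxes, at 82 to 73 and 62 to 53 bases before its start.
Srf, chr17:46556163-46556282, minus strand: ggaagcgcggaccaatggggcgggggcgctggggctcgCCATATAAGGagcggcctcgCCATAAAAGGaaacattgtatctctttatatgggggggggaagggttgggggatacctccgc
Myl9, chr2:156775264-156775463, plus strand: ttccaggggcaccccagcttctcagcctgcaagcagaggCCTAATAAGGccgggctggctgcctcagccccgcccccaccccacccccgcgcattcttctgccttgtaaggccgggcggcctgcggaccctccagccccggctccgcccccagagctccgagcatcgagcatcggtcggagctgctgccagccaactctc
Vcl, chr14:20929148-20929397, plus strand: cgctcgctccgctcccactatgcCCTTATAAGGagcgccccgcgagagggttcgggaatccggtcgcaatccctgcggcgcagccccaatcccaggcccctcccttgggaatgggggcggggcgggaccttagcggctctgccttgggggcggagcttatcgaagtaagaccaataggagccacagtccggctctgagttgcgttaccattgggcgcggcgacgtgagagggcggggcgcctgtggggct
Cnn2, chr10:79988500-79988599, plus strand: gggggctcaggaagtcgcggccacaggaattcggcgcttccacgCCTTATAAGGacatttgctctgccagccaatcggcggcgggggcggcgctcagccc
Myl6, chr10:128493010-128493109, minus strand: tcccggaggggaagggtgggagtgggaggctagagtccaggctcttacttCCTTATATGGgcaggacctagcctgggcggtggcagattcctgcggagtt
Ldb3, chr14:34588682-34588781, minus strand: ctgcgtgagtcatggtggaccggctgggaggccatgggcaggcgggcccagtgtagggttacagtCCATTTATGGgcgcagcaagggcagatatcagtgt
The fitted log2 ratios of the 6 genes with a box were 0.28 for Myl9, 0.25 for Vcl, 0.20 for Srf, 0.14 for Cnn2, 0.00 for Myl6 and -0.05 for Ldb3, and none was called. Vcl and Cnn2 carry the same box letters, and Srf the same pattern with other letters inside. A match of letters is a description of the window, not of binding, and boxes farther from a start or inside introns lie outside it. Only exact matches were counted, so a gene without a match here may still hold a variant of the box. Tagln, Csrp2, Myocd, Actg2 and Myh11 had no window to search.

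Among the thin-filament genes, 5 of 6 tested had ratios above 0, from -0.10 for Tpm4 to 0.36 for Actg2, and none was called. Acta2 encodes smooth muscle alpha-actin, the earliest and most used marker of the lineage. Its control levels were 10.36, 10.34, 12.00 and 11.62 on replicates 1 to 4, and its cDKO levels 10.16, 10.28, 12.85 and 11.22. Both groups were low on replicates 1 and 2 and high on 3 and 4, and they overlapped throughout. The log2 ratios were -0.20, -0.06, 0.85 and -0.40, which gave a fitted value of 0.05 ± 0.17 (adjusted p = 0.914). Its 95% interval, in folds, ran from 0.781 to 1.37.

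Actg2, the gamma-actin of visceral smooth muscle, had control levels of 9.18, 9.08, 11.03 and 10.33 and cDKO levels of 9.43, 9.74, 11.50 and 10.39. The cDKO channel was the brighter one on every array, by 0.25, 0.66, 0.47 and 0.06. The fitted log2 ratio was 0.36 ± 0.11, or 1.28-fold (adjusted p = 0.17). The tropomyosins, which lie along actin and gate its access to myosin, had fitted ratios of 0.14 (Tpm2), 0.05 (Tpm1) and -0.10 (Tpm4). Tnnt2, a troponin T best known from heart muscle, was at 0.06 ± 0.08. Lmod1 encodes leiomodin 1, which nucleates actin filaments in smooth muscle, and it could not be tested: its only probe had 1 of 16 control spots above background and none of 16 in cDKO.

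All 6 actin-binding genes had ratios of at least 0, from 0.00 for Cnn1 to 0.49 for Tagln, again with none called. Tagln encodes transgelin (SM22), an actin cross-linker that appears early in smooth muscle. Its control levels were 12.76, 12.34, 12.50 and 12.47 and its cDKO levels 12.68, 13.11, 13.43 and 12.82. The control levels lay close together, and 3 of the 4 cDKO levels were above all of them. The ratios were -0.08, 0.77, 0.93 and 0.35, and the fitted value was 0.49 ± 0.17, or 1.41-fold (adjusted p = 0.185). It was 0.24 without replicate 3 and 0.75 without replicate 1.

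Smtnl2, a smoothelin-like protein, had ratios of 0.36, 0.36, 0.13 and 0.42, with a fitted value of 0.32 ± 0.08 (adjusted p = 0.112). Every array had more Smtnl2 signal in the cDKO channel, although the groups overlapped in level (12.75 to 13.16 in cDKO, 12.39 to 12.85 in control). Cnn1, calponin 1, which slows the actin-activated myosin ATPase, had control levels of 10.99, 10.90, 11.56 and 11.33 and cDKO levels of 10.90, 10.96, 11.74 and 11.19. Its ratios were -0.09, 0.06, 0.18 and -0.15, and the fitted value was 0.00 ± 0.08 (adjusted p = 0.993; 95% interval 0.87-fold to 1.15-fold). Smtn, smoothelin, a marker of contractile cells, gave 0.15, 0.14, -0.05 and -0.05 and a fitted 0.05 ± 0.08. Its levels were 12.96, 13.12, 13.77 and 13.59 in control and 13.12, 13.27, 13.71 and 13.54 in cDKO. Cnn2 and Cald1, the genes of calponin 2 and caldesmon, were at 0.14 and 0.15.

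The myosin genes had fitted ratios on both sides of 0, with none called. Myl9, the regulatory light chain of smooth muscle myosin, had ratios of 0.07, 0.55, 0.10 and 0.40 and a fitted value of 0.28 ± 0.07 (adjusted p = 0.125). The higher pair of ratios came from the arrays with cDKO in green. Myh11, the smooth muscle myosin heavy chain and a late marker of the lineage, had control levels of 6.91, 6.93, 7.81 and 7.27 and cDKO levels of 6.82, 6.76, 7.34 and 7.12. All 4 arrays had less signal in cDKO, by ratios of -0.09, -0.17, -0.47 and -0.15, and the groups overlapped. The fitted log2 ratio was -0.22 ± 0.09 (adjusted p = 0.238). It was -0.49 with the scanner's processed signals (adjusted p = 0.0983), -0.54 with the authors' deposited table (adjusted p = 0.0828) and -0.13 without replicate 3. Its probe was dim: 13 of its 16 cDKO spots were well above background, against 16 of 16 control spots. It was kept only through the control channels, since on replicate 2 just 1 of 4 cDKO spots was above background. Myl6, the essential light chain, was at 0.00 ± 0.08.

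Of the 3 genes that regulate myosin phosphorylation, Ppp1r14a had the fitted ratio of largest size. It encodes CPI-17, an inhibitor of myosin phosphatase that raises the calcium sensitivity of contraction. Its control levels were 11.70, 11.48, 11.37 and 11.44, and its cDKO levels 11.14, 11.23, 11.22 and 10.98. The lowest control level lay above the highest cDKO level. The ratios were -0.56, -0.25, -0.15 and -0.46, and the fitted value of -0.35 ± 0.10 (0.783-fold) did not pass the adjusted threshold (adjusted p = 0.133). Ppp1r12a, the targeting subunit of the same phosphatase, was at 0.04 ± 0.09, and Mylk, the light chain kinase, at 0.03 ± 0.11, with Mylk ratios on the arrays from -0.45 to 0.62.

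The calcium genes gave no common direction. Cacna1c encodes the pore of the L-type calcium channel, through which calcium enters for contraction, and its ratios were 0.32, -0.18, 0.10 and 0.52. The control levels were 11.20, 11.72, 11.69 and 11.27 and the cDKO levels 11.52, 11.54, 11.80 and 11.79, with the groups overlapping. The fitted ratio was 0.19 ± 0.12 (adjusted p = 0.437). Pcp4, a small calmodulin-binding protein, had ratios of -0.24, -0.49, 1.02 and -0.38, so that replicate 3 opposed the other 3 arrays. On that array the control level was the lowest of all, 8.14 against 8.83 to 8.98, and the cDKO level the highest, 9.16 against 8.45 to 8.74. A list of 7 neural crest and glia markers (3 above 0, none called) was also highest on replicate 3, with median ratios of 0.19, -0.36, 1.06 and -0.37. Its mean level ran from 10.27 to 11.06 in cDKO and from 10.3 to 10.69 in control, and its part in the Pcp4 values was not tested.

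All 3 genes of intermediate filaments and the muscle membrane had ratios above 0. Synm encodes synemin, a filament protein that links desmin to adhesion sites. Its control levels were 7.73, 7.91, 7.78 and 7.59 and its cDKO levels 8.16, 8.005, 8.19 and 7.95. The lowest cDKO level, on replicate 4, lay just above the highest control level, on replicate 2. The ratios were 0.43, 0.10, 0.41 and 0.36, with a fitted value of 0.32 ± 0.08, or 1.25-fold (adjusted p = 0.112). Des, desmin, the main intermediate filament of muscle, had ratios of 0.26, 0.09, -0.28 and 0.12 and a fitted value of 0.05 ± 0.10 (adjusted p = 0.848). Its levels were 9.27, 9.35, 9.93 and 9.60 in control and 9.53, 9.45, 9.65 and 9.71 in cDKO. Sgcd, delta-sarcoglycan of the dystrophin complex, was at 0.08 ± 0.12, with replicate 3 at 0.57 and the other arrays between -0.14 and -0.02.

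Genes of adhesion plaques and actin cross-linking had the highest median of the 9 role groups, 0.31, from 0.00 for Actn1 to 0.72 for Synpo2. The Synpo2 levels were 8.96, 9.04, 9.12 and 9.27 in the controls and 10.04, 9.83, 9.52 and 9.90 in cDKO. The groups were apart, with the lowest cDKO level, on replicate 3, above the highest control level. The ratios of 1.08, 0.79, 0.40 and 0.63 gave a fitted 1.65-fold (95% interval 1.35-fold to 2.02-fold). In the authors' deposited table the signed folds for the same probe were 2.26, 1.86, 1.37 and 1.57, all with the sign of higher signal in cDKO. Flna, filamin A, which cross-links actin into networks, had ratios of 0.42, 0.67, -0.06 and 0.48 and a fitted value of 0.38 ± 0.10 (adjusted p = 0.128). Vcl, vinculin, which anchors actin at adhesions, was at 0.25 ± 0.09, above 0 on all 4 arrays at 0.06 to 0.43 (adjusted p = 0.214). Actn1, alpha-actinin 1, was at 0.00 ± 0.08.

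The LIM and PDZ genes encode adaptors of the actin cytoskeleton. Csrp1, a LIM protein that smooth muscle holds in quantity, had ratios of 0.48, 0.72, 0.09 and 0.36, with the cDKO channel brighter on every array. Its levels were 15.26, 15.33, 15.92 and 15.65 in control and 15.73, 16.06, 16.01 and 16.01 in cDKO, so the control of replicate 3 reached into the cDKO range. The fitted value was 0.41 ± 0.10, or 1.33-fold (adjusted p = 0.112). Its relative Csrp2 was at -0.02 ± 0.08. Pdlim7 was above 0 on all 4 arrays (0.07 to 0.29; fitted 0.19 ± 0.08), Ldb3 was at -0.05 ± 0.10 and Pdlim3 at -0.10 ± 0.07.

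**Figure D2:**
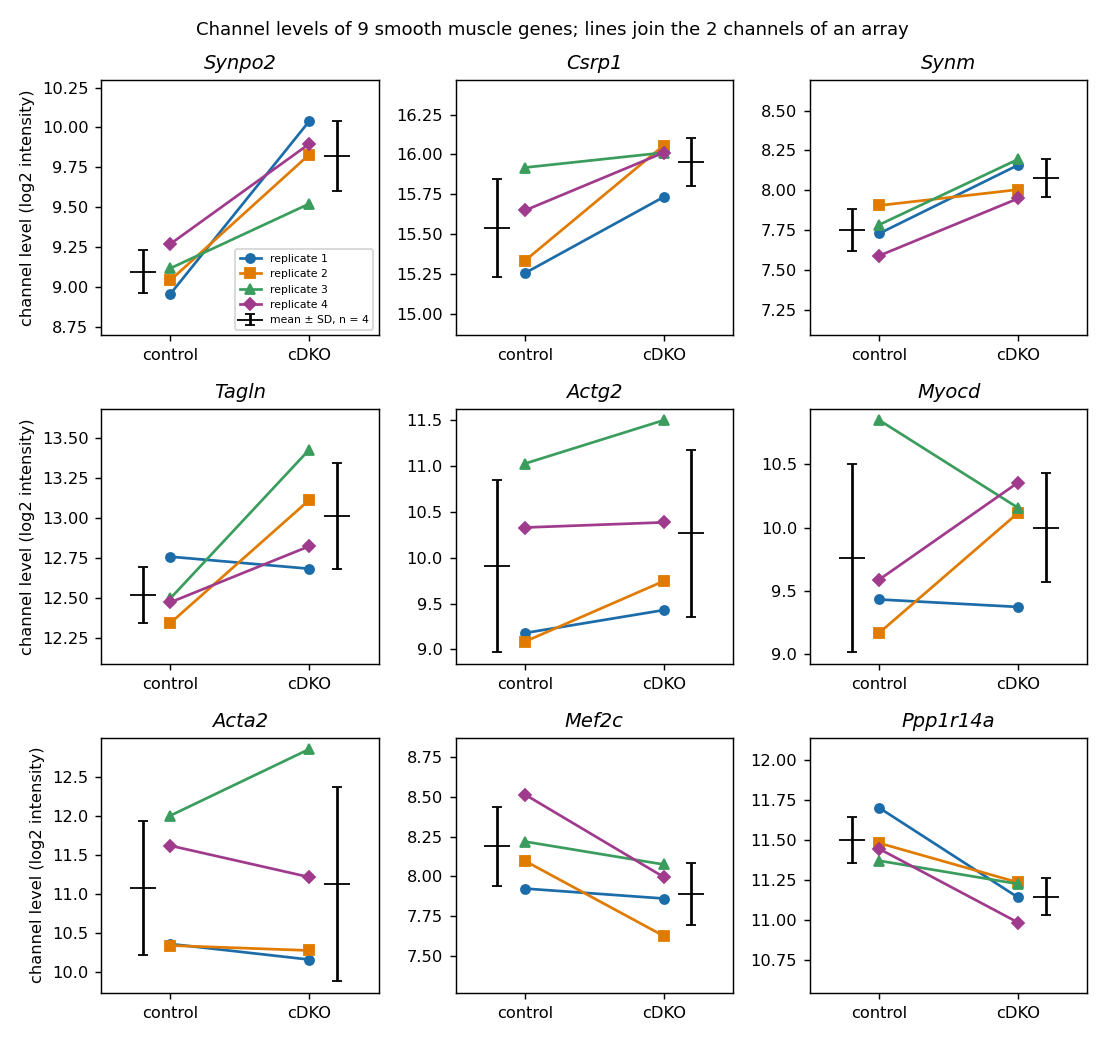
Channel levels (log2 intensity after scaling between arrays) of 9 smooth muscle genes in control and cDKO; a line joins the channels of 1 array, and the black bars are mean ± SD (n = 4). In Synpo2, Synm and Ppp1r14a the groups do not overlap, while in Acta2 and Actg2 replicates 3 and 4 lie above replicates 1 and 2 in both groups.

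The levels of several core genes differed more between the slides than between the genotypes. Acta2 averaged 10.35 in the controls of slide 1 and 11.81 in those of slide 2, and 10.22 and 12.03 in cDKO. Actg2 went from 9.13 to 10.68 in control and from 9.59 to 10.94 in cDKO, and Tnnt2 from 7.33 to 8.83 and from 7.46 to 8.83. For these 3 genes the level was at least 1 log2 unit higher on slide 2, averaged over the channels; that is 8.57% of the 35 genes, against 0.196% of all genes (38 of 19365). In 11 of the 35 genes (31.4%, where all genes gave 2066 of 19365) every channel of slide 2 was above every channel of slide 1. They were Smtn, Myh11, Cnn1, Des, Tpm2, Cnn2, Vcl and Ppp1r12a beside the 3 named. The opposite order held for 2 genes, Tpm1 and Sgcd (5.71%; 14.7% of all genes). These are descriptions without a test, and slide, scan and the embryos behind each replicate cannot be told apart.

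Several markers of skeletal muscle differed between the slides as well. Over the 10 skeletal markers tested, the mean level was 8.32 on slide 1 and 9.31 on slide 2 in control, and 8.58 and 9.33 in cDKO. Myog, a myogenic transcription factor, went from 7.32 to 8.53 in control and from 7.34 to 8.63 in cDKO, Acta1, skeletal alpha-actin, from 7.17 to 9.12 and from 7.37 to 9.28, and Myl1, a fast light chain, from 8.21 to 10.42 and from 8.39 to 10.55. Averaged over both groups, Myh3 rose by 1.24 log2 units and Myh8 by 0.99. The rise was smaller for Actc1 (0.46), Myod1 (0.39), Tnni1 (0.28) and Tnnt3 (0.18). In Myh3, Actc1 and Tnnt3 the channels of the slides overlapped. Mylpf went the other way, from 7.62 to 7.39 in control, and Myf5, Myf6, Pax7 and Ckm were not above background. The part of skeletal muscle RNA in the levels of Acta2, Actg2 and Tnnt2 was not tested. Between the genotypes the 10 markers had a median log2 ratio of 0.11, with none called, and per-array medians of 0.02, 0.23, 0.02 and 0.01. The cardiac markers, 5 of 6 tested, had a median of 0.09. The 8 markers of vascular mural cells, the smooth muscle cells and pericytes of vessels, had one of 0.03. None was called in either list. The 3 mural markers with an unadjusted p under 0.05 were Notch3 (0.36), Abcc9 (-0.42) and Rgs4 (-0.49). Several lists of other cell types in the same ureters had medians below 0. All 7 erythroid markers were below 0 with an unadjusted p under 0.05 (median -0.33), and 2 were called, Hba-x (-0.66, adjusted p = 0.0425) and Hbb-bh1 (-0.54, adjusted p = 0.0385). Of 8 endothelial markers 7 were below 0 (median -0.32), with Emcn called (-0.58, adjusted p = 0.0363), of 7 macrophage markers 6 (median -0.24), with Fcer1g called (-0.52, adjusted p = 0.049), and of 3 mesothelial markers all 3 (median -0.36), with Msln called (-0.82, adjusted p = 0.0282). The 14 urothelial markers had a median of -0.04, with 4 above 0 and Upk1b called (-1.43, adjusted p = 0.0401). An unadjusted p under 0.05 was found for 7 of them: Upk1b, Upk3a (-0.91), Upk2 (-0.59), Upk1a (-0.59), Grhl3 (-0.58), Krt19 (-0.55) and Shh (0.53). The 7 kidney markers were all above 0, with a median of 0.12 and none called. The part of these lists in the ratios of the smooth muscle genes was not tested. Of the 10 markers of ureteric mesenchyme all were measured, and 9 had ratios above 0, all but Tcf21 (-0.27). All 10 had an unadjusted p under 0.05, and 1 was called, Ptch1 (0.55, adjusted p = 0.0401). Their median was 0.38, with per-array medians of 0.48, 0.47, 0.10 and 0.41. Tbx18, the gene that carries the cre allele, is among them, at 0.26. The part of this list in the ratios of the smooth muscle genes was not tested either.

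**Figure D3:**
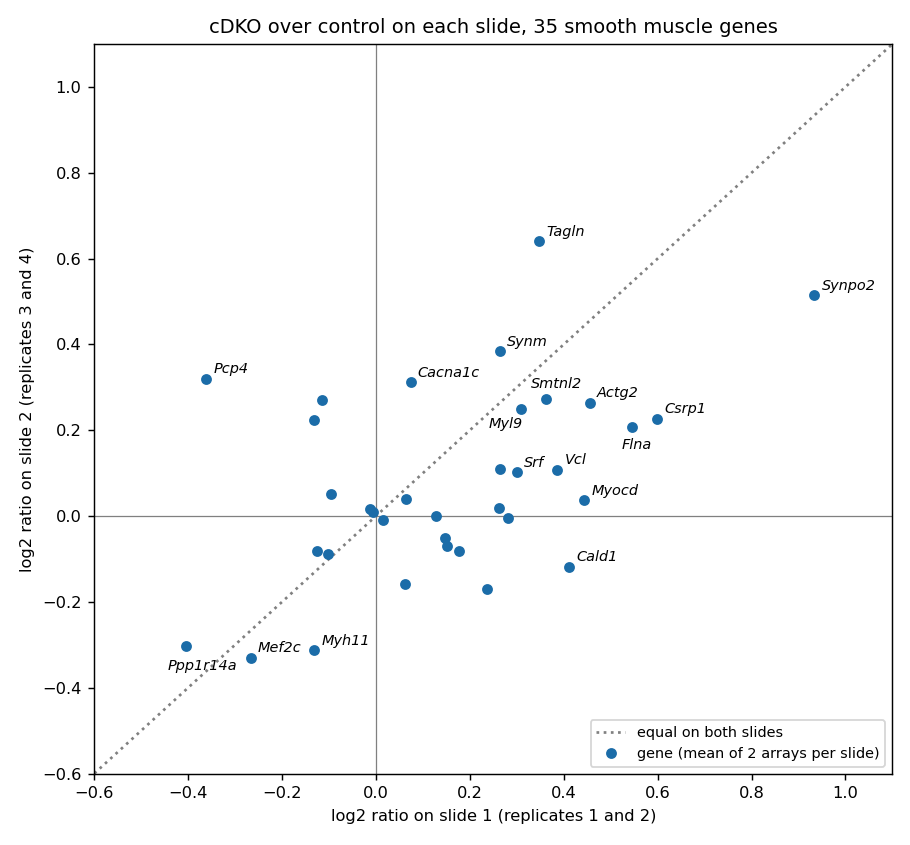
Log2 ratio of cDKO over control on slide 1 (x axis, mean of replicates 1 and 2) against slide 2 (y axis, mean of replicates 3 and 4) for the 35 smooth muscle genes; the dotted line marks equal values. Synpo2 lies at 0.93 and 0.52, and more of the labelled genes with positive ratios lie under the dotted line than above it.

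The ratios themselves also differed in size between the slides. The list's median log2 ratio was 0.15 on slide 1 and 0.04 on slide 2, and Synpo2 had 0.93 on slide 1 and 0.52 on slide 2. Csrp1 was at 0.60 and 0.23, Flna at 0.55 and 0.21, Myocd at 0.44 and 0.04, and Cald1 at 0.41 and -0.12. Pcp4 was at -0.36 on slide 1 and 0.32 on slide 2, and Tagln at 0.35 and 0.64. A difference between slides with an unadjusted p under 0.05 was found for 8 of the 35 genes, or 22.9%, against 14.3% of all genes. None of the 8 passed the adjusted threshold (lowest adjusted p = 0.233, for Cald1; limma's interaction of genotype and slide), while 173 genes outside the list did.

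With the slide as a term the fitted ratios are the same by construction, and 1 residual degree of freedom remains. In that fit 9 of the 35 genes were called (25.7%), against 12.5% of all genes (2418). With ratios above 0 these were Synpo2 (adjusted p = 0.0017), Csrp1 (0.00844), Flna (0.015), Synm (0.0259), Smtnl2 (0.028), Myl9 (0.0382) and Actg2 (0.0499), and with ratios below 0 Mef2c (0.0285) and Ppp1r14a (0.0353). Tagln stayed just outside (adjusted p = 0.0543). On slide 1 alone 1 gene of the list was called, Synpo2 (adjusted p = 0.0178), where 2.85% of all genes were called (551). On slide 2 alone none of the genes tested was called, in the list or outside it. The difference between the sex labels could be fitted on the same 4 arrays, where it cannot be told apart from a dye difference between the slides. No gene on the array was called, while 207 genes had an unadjusted p under 0.05, Tagln and Acta2 among them.

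**Figure D4:**
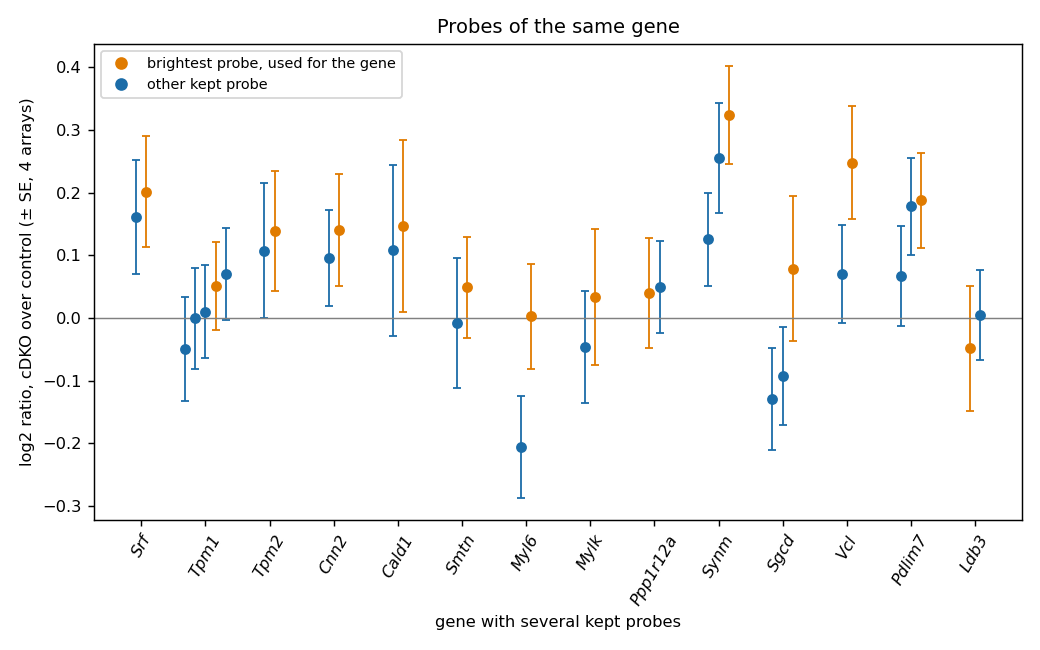
Fitted log2 ratio of cDKO over control (± SE, 4 arrays) for each kept probe of the 14 smooth muscle genes that had several; orange marks the brightest probe, which stands for the gene elsewhere. The probes of Tpm1 lie between -0.05 and 0.07, and those of Myl6 are the farthest apart, at 0.00 and -0.21.

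Of the 62 probes, 55 were bright enough to keep, and 14 genes had several kept probes. In 8 of these all probes lay on the same side of 0, and the median spread of the fitted log2 ratios within a gene was 0.07. For Synpo2, the gene nearest to a call, the value rests on 1 of its 3 probes, since the other 2 had at most 3 of 16 spots above background in either group. The 3 probes are named by their arrays' identifiers and shown by their first 30 of 60 bases, with the positions of build mm9 on the minus strand as the file headers give them.
A_55_P2095133, chr3:122779459-122779518, kept: ctctgtcctcaaaggctgtatgtgaaagat
A_55_P2159309, chr3:122782094-122782153, not kept: gatataacatgcatttgccatttaccttgt
A_52_P223127, chr3:122815498-122815557, not kept: cacaaatgcgcaggcttcttctgtgtactc
The dim probes were not tested, and their ratios on the arrays lay between -0.05 and 0.11. Synm had 3 kept probes of 5, at 0.32 (used), 0.25 and 0.13, all above 0. The probe at 0.25 was kept through the cDKO channel, where 15 of 16 spots were above background against 7 of 16 in control. Vcl gave 0.25 and 0.07, Pdlim7 0.19, 0.18 and 0.07, and Srf 0.20 and 0.16, each on 1 side of 0. Sgcd gave 0.08 with its brightest probe and -0.09 and -0.13 with the others.

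Myl6 had the widest spread within a gene, 0.21, between probes on chromosome 10 that read different stretches of the gene, so both are shown (mm9, minus strand, first 30 bases).
A_55_P2027969, chr10:127927918-127927977, used: catttggtttcttttggatgatgtttgcct
A_55_P2096257, chr10:127929163-127929304, not used: tcatgtcctagtcacactgggcgagaagat
The second spans 142 bases of genome with its 60 bases, and its ratio was -0.21 ± 0.08 (adjusted p = 0.246 over kept probes) where that of the first was 0.00 ± 0.08. Of the defining genes, Srf and Smtn had 2 kept probes each, the Smtn probes at 0.05 (used) and -0.01, and 7 had a single probe. The probe of Acta2 lies at chr19:34316060-34316119, that of Tagln at chr9:45738097-45738156, that of Cnn1 at chr9:21913058-21913117, that of Actg2 at chr6:83462904-83462963, that of Myh11 at chr16:14202190-14202249, that of Myocd at chr11:64991930-64991989 and that of Des within chr1:75363404-75363629. Whether each lies in a coding exon or an untranslated region was not worked out for build mm9. Among the 5 Tpm1 probes, a pair shares 46 bases and is not independent.

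Related genes of the same machinery, in 4 lists given by name, held no called gene either. Among 13 co-regulators of SRF and myocardin, 11 had ratios above 0 and the median was 0.12. Prdm6, a repressor of the smooth muscle programme, was at 0.37 ± 0.07 (adjusted p = 0.0781), with ratios of 0.31, 0.34, 0.48 and 0.37, and Mrtfb, a co-activator related to myocardin, at 0.27 ± 0.08 (adjusted p = 0.16). Of 11 tested genes of calcium handling, 7 were above 0 with a median of 0.11. Itpr1, a calcium release channel, was at 0.28 ± 0.09 (adjusted p = 0.16).

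The list of nonmuscle and other actomyosin genes had the highest median of the 4 lists, 0.28. In it 14 of 15 tested genes were above 0 and 9 had an unadjusted p under 0.05. It is not limited to nonmuscle genes, so it gives no contrast of nonmuscle with muscle genes. Actg1, cytoplasmic gamma-actin, was at 0.48 ± 0.10 (adjusted p = 0.0839), with ratios of 0.99, 0.31, 0.63 and -0.02, and Nexn, which binds actin filaments, at 0.41 ± 0.11 (adjusted p = 0.12). The per-array medians of that list were 0.38, 0.38, 0.09 and 0.17, where those of the 35 smooth muscle genes were 0.06, 0.14, 0.07 and 0.06. The 23 genes of adhesion plaques and the dystrophin complex had a median of -0.03, with 10 above 0. Crip1, a LIM protein, was at -0.53 (adjusted p = 0.0862) and Sgce, epsilon-sarcoglycan, at -0.40 (adjusted p = 0.0864).

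**Figure D5:**
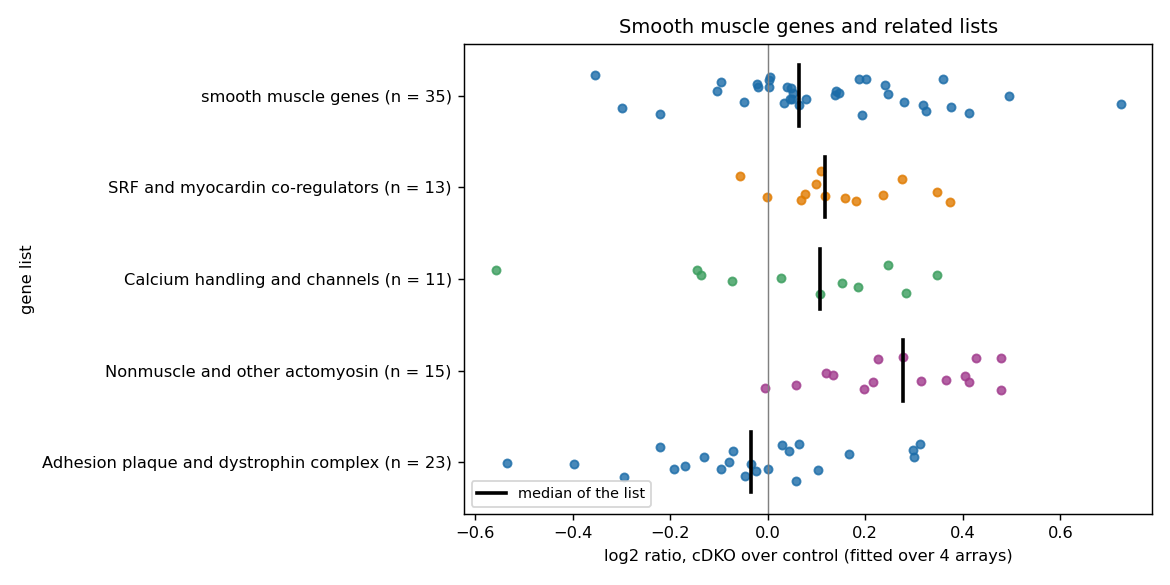
Fitted log2 ratio of cDKO over control for each tested gene of the smooth muscle list and of 4 related lists; a point is a gene and the black bar the median of its list. The medians run from -0.03 for the adhesion and dystrophin genes to 0.28 for nonmuscle and other actomyosin, with the 35 smooth muscle genes at 0.06.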

How the data were processed

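Total RNA from E14.5 ureters was measured on 4 two-colour arrays. Per the labels' protocols, 150 ng of RNA was amplified and labelled with Cy3 or Cy5. Agilent Feature Extraction 10.7.3.1 read the scans, per the submitters' processing notes, and the coordinates of the probes refer to mm9, per the file headers. The deposited files hold, per spot and channel, a mean intensity, a local background intensity and an intensity processed by the scanner software, besides a log10 ratio of both colours (red divided by green). A further table of the authors, the deposited values, holds a signed fold per probe, entered as a score because its centring is unknown. Set against log2 red over green across probes it correlated at 0.945, -0.935, 0.909 and -0.910 on replicates 1 to 4, so a positive fold means higher in cDKO. Its column medians are 1, with 10624 to 11152 probes listed at exactly 1. No column lacked a sample.

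In R 4.3.3 with limma 3.58.1, mean intensities were corrected with normexp (offset 50) and log2 ratios normalized within arrays by loess (span 0.3). Control spots and spots marked as outliers had no weight, and the 4 spots of a probe were averaged. Probes were kept if, in either group, every one of the 4 arrays had at least 3 of the 4 spots well above background, which left 25591 of 39429 (64.9%). The brightest kept probe stood for a gene. Levels per channel followed quantile scaling of mean intensities. lmFit and eBayes fitted genotype and dye, two-sided, with Benjamini-Hochberg adjustment over 19365 genes; 2 residual degrees of freedom were joined by 4.53 of the prior. The number of arrays limits the precision. The ratio itself pairs the extracts of an array, so the replicate number is the pairing.

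All 36 genes are named, with values per array for those with the smallest p of each role, for the defining smooth muscle genes and for Pcp4, and, of each related list, the 2 genes with the smallest p, except that some items are not reported here. The genes and lists were chosen with earlier results of these data known. Alternatives were the scanner's processed signals, median centring, no filter on dim probes, the mean of a gene's probes, no dye term, a slide or sex label term, each slide alone, each array left out, unpaired channel levels and the authors' table. CArG boxes were searched with exact letters in RefSeq promoter windows of GRCm38.p6; 5 genes (Tagln, Csrp2, Myocd, Actg2 and Myh11) had no window.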

Additional observations from a re-analysis of the deposited data

Results flagged for a closer look

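In Pcp4, the log2 ratio of replicate 3 was 1.016 while the other 3 arrays lay between -0.49 and -0.24. The gap to the nearest of them took 0.833 of the whole range, above Dixon's 95% critical value for 4 samples. In Sgcd, replicate 3 was at 0.5663, with the other arrays between -0.14 and -0.02 and a gap of 0.83 of the range. The ratios of 35 genes were examined in this way, and 2 stood out; a few such samples arise by chance among that many groups.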

How the results depend on the processing

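Over all genes the count, 165, became 255 with median centring, 258 without a dye term, 1 with no filter on dim probes (of 29875), 2418 with a slide term, 2 with a sex label term, 551 on slide 1 alone and 0 on slide 2 alone; without one replicate it ran from 34 to 403. The cause of each was not tested. Without the array's pairing (channel levels, no replicate block) 73 genes and none of the list were called. Of the 35 smooth muscle genes, 1 was called with median centring, 1 without a dye term and 1 on slide 1 alone, each time Synpo2, and 9 with a slide term; leaving out a replicate gave 0 to 1, the 1 being Synpo2 without replicate 3. The list's median log2 ratio, 0.06, was 0.15 on slide 1 alone and 0.041 to 0.13 without one replicate. Over the 15 alternatives Synpo2 ranged from 0.52 to 0.93 with adjusted p from 0.0017 to 0.439. Myh11 ranged from -0.54 to -0.13, Tagln from 0.24 to 0.75, Myocd from 0.04 to 0.44 and Cacna1c from 0.02 to 0.37. In 20 genes the sign never changed, and in 15 genes, none with a main ratio above 0.15 in size, it changed at least once; no called value reversed. Signal over background limits Myh11, Lmod1 and 2 probes of Synpo2. It also limits probes of Synm, Cacna1c and Sgcd other than the ones used for these genes.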
